A study of Mus musculus with 2 samples.

Results

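Eph receptors and ephrins were followed through single-cell transcriptomes of the mouse cornea and limbus, the ring at the corneal edge that holds the epithelial stem cells. The members were 10 genes of the 32285 in the feature list, matched by symbol and present in both matrices. They were the EphA receptors Epha1, Epha2 and Epha4, the EphB receptors Ephb2, Ephb3, Ephb4 and Ephb6, and the ligands Efna1, Efnb1 and Efnb2. Their levels were read in epithelial cells, taken as cells with Krt5, Krt14 and Krt15 together at 30 or more per 10000 unique molecular identifiers (UMIs), and were split by Krt12, Krt14, Krt13, Gpha2 and Krt4. Of these 5 genes, Gpha2 was taken as a limbal and Krt12 as a corneal marker. Krt14, Krt13 and Krt4 on their own do not place a cell on a side of the border between limbus and cornea.

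The anterior segment was dissected, freed of lens, retina, iris and trabecular meshwork, and trimmed of most conjunctiva before enzymatic dissociation and 10x Genomics sequencing. One library carried the genotype label wt and the other the label Pax6 +/-, a mouse with 1 disrupted copy of the eye transcription factor Pax6. The series text speaks of 2 mice per genotype, and the protocol places corneas in a single tube without saying from how many animals. The allele, strain, age and sex are not stated. With 1 library per genotype no test was possible, so a ratio describes these 2 libraries and its 95% interval covers counting error only.

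Eph receptors are receptor tyrosine kinases that bind ephrins on the surface of a neighbouring cell, and both cells can then signal. EphA receptors mostly bind the lipid-anchored ephrin-A ligands and EphB receptors the membrane-spanning ephrin-B ligands, while Epha4 binds both kinds. In stratified epithelia and at tissue borders such contacts are known for keeping cell populations apart and for positioning stem and progenitor cells.

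Pax6 was read first as a check of the labels. It stood at 372 CPM (UMIs summed over cells, per 1000000 UMIs of nuclear-encoded genes) in wild-type epithelial cells and at 743 CPM in those of the library labelled Pax6 heterozygous, a direction that goes against a reading of the label as less Pax6 RNA. The genotype is therefore given as labelled throughout. The libraries held 124540296 and 131567589 UMIs, and 10154 and 9542 cells were kept, of which 8552 (84.2%) and 6796 (71.2%) were epithelial with medians of 11294 and 14175 UMIs. All 6 epithelial markers reached 20 CPM in both. The make-up differed: Krt12, the cornea-type keratin, reached 29618 CPM in the wild-type and 1769 CPM in the other library. Cells with UMIs of Xist but of no Y-linked gene made up 95.4% of wild-type epithelial cells and 49.7% of the others, where another 36.6% had Y-linked UMIs and no Xist, so that library held cells of more than 1 mouse. The libraries shared 40 barcodes, 27 and 30 of them in epithelial cells, and without these the epithelial ratio of Ephb2 was 15.99.

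Ephb2 was the member that set the libraries apart. Over all epithelial cells, Ephb2 and Ephb4 were at least 2-fold higher in the library labelled heterozygous and no member was at least 2-fold lower, out of the 8 members that reached 20 CPM in either library. Among all genes at that level 19.7% (1400 of 7105) were at least 2-fold apart, 13.2% higher and 6.46% lower, so the members' share was close to the background. The median log2 ratio was 0.25 over these 8 members and 0.17 over all 7105 genes. Scaling factors, estimated over genes without a minimum CPM, lowered every epithelial log2 ratio by 0.33 (TMM) or 0.35 (DESeq2). This was more than the median of 0.17, so the typical gene at 20 CPM then lay below no change. Under TMM the members at least 2-fold apart were 1 higher, Ephb2, and 1 lower, Efna1. Under DESeq2 factors they were 1 higher, Ephb2, and 2 lower, Efna1 and Efnb1. The plot of ratios by class shows the members side by side.

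**Figure D1:**
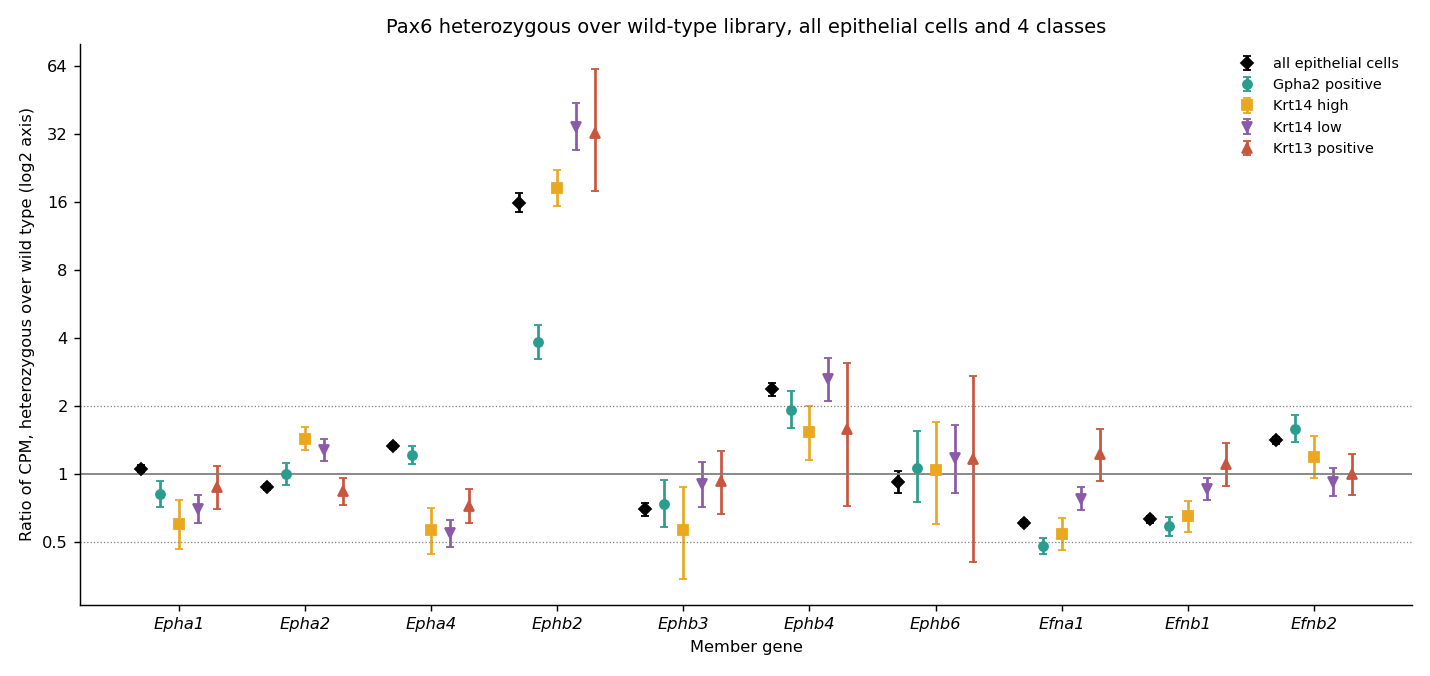
Ratio of CPM in the library labelled Pax6 heterozygous over the wild-type library (log2 axis) for each member, in all epithelial cells and in 4 epithelial classes, with exact 95% intervals for counting error as bars and dotted lines at 2 and 0.5. Ephb2 lies between 3.84 and 34.6 in every class shown, while the other members lie between 0.483 and 2.65.

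Ephb2 (ENSMUSG00000028664; GRCm38 chromosome 4, 136647539 to 136835988, minus strand) encodes an EphB receptor that binds Efnb1 and Efnb2 and is known for placing progenitor cells in the intestinal crypt. It gave 482 UMIs in wild-type epithelial cells, a level of 4.33 CPM, and 7154 UMIs in the library labelled heterozygous, a level of 69.2 CPM. The ratio was 15.97 (95% interval 14.6 to 17.5). Ephb4 (ENSMUSG00000029710; chromosome 5, 137350109 to 137378669, plus strand), the receptor of Efnb2 in vessels, stood at 10.8 and 25.6 CPM, which gave a ratio of 2.38 (2.22 to 2.55). The Ephb4 ratio fell short of 2-fold under TMM and DESeq2 factors, at 1.89 and 1.87. Ephb4 overlaps Zan on the opposite strand, and whether counting used strand is not stated.

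The 250 bases before the RefSeq start of these 2 genes (GRCm38.p6) are shown because both were higher in one library. Capitals mark the GC box (GGGCGG) and the CACCC box (CACCC) on either strand, motifs that Sp and Klf factors can bind. The Ephb2 window is chr4:136836013-136836262 on the minus strand and the Ephb4 window is chr5:137349859-137350108 on the plus strand.
Ephb2: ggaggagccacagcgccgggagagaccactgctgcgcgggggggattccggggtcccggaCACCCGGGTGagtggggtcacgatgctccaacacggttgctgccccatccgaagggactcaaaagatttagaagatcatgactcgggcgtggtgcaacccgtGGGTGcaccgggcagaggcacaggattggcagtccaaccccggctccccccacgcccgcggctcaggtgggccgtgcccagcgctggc
Ephb4: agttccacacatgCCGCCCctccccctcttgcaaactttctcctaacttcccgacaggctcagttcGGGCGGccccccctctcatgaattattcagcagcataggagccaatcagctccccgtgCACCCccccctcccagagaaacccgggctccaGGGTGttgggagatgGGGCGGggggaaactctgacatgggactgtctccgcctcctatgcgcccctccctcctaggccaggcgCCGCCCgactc
The Ephb2 window held no GC box and 3 CACCC boxes, of which 2 abut on opposite strands in the capital run of 10 letters, at a GC content of 68.4%. The Ephb4 window held 4 GC boxes and 2 CACCC boxes at 64% GC. Of 32851 mouse promoters in the table, 32.7% held a GC box and 52% a CACCC box. Among the 11 member promoters 9 held a GC box and 10 a CACCC box. In GC content the member windows stood above 56.5% (Epha1) to 97.2% (Ephb6) of all promoters. Motif shares were not compared at like GC content. The core TTCACGC of the Pax6 paired-domain site was in 1.03% of all promoters, the E-box CACGTG in 6.02% and the grainyhead palindrome AACCGGTT in 0.116%, and each was in 0 of the 11.

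Ephb2 was higher in the library labelled heterozygous in all 4 epithelial classes that both libraries filled. The classes were exclusive: Gpha2 positive (at least 2 Gpha2 UMIs per 10000), then, among cells with Krt12 at 20 or more per 10000, Krt13 positive, Krt14 high and Krt14 low. Krt14 was cut at each library's own epithelial median, 2.40 per 10000 UMIs in the wild type and 44.7 in the other, so the 2 Krt14 classes do not hold cells of like Krt14 content in the 2 libraries. The Gpha2-positive class had no Krt12 limit. From its lowest to its highest Gpha2 content, Krt12 reached 18690, 11044 and 4834 CPM among wild-type cells, against 442, 186 and 68.0 CPM among the others. Ratios in this class therefore compare cells of unlike Krt12 content. In the Gpha2-positive class, limbal by its marker, Ephb2 stood at 22.3 CPM in 596 wild-type cells and at 85.7 CPM in 2817 others. In the Krt14-high class it stood at 4.90 CPM in 3686 cells and at 90.5 CPM in 155. In the Krt14-low class it stood at 2.12 CPM in 3612 cells and at 73.4 CPM in 312. In the Krt13-positive class it stood at 0.982 CPM in 617 cells and at 31.8 CPM in 62. The wild-type levels thus descended over the classes in this order, with intervals that did not overlap between neighbours. The first 2 levels of the other library had overlapping intervals. All classes but the Gpha2-positive one had Krt12 at or above its limit, so the order among them is not a position across the limbal border. The ratios were 3.84, 18.5, 34.6 and 32.4. Median depth was lower in the wild type in each class, at 9950 and 13511 UMIs in the Gpha2-positive and 9458 and 14120 UMIs in the Krt14-low class. Many cells lie near the Gpha2 limit: 10.0% of wild-type and 25.3% of the other epithelial cells had 1 to 5 Gpha2 UMIs per 10000.

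Counts of members by class were read against the same counts over all genes. In the Gpha2-positive class Ephb2 was at least 2-fold higher and Efna1 at least 2-fold lower, 2 of 8 members at 20 CPM, against 14.2% of all genes. In the Krt14-high class the only such member was Ephb2, 1 of 8 against 17.6%. In the Krt14-low class they were Ephb2 and Ephb4, 2 of 9 against 16.7%. In the Krt13-positive class it was Ephb2 alone, 1 of 8 against 20.9%. Each count lies within 1 gene of what the background share would give, and Ephb2 was the only member called in all 4. The median log2 ratios of the members were 0.15, -0.18, -0.14 and -0.05 in the 4 classes in that order, beside 0.12, -0.09, 0.09 and 0.25 over all genes. The library labelled heterozygous also held 1137 Krt4-positive and 2313 other cells with Krt12 under 20 per 10000, with Ephb2 at 36.7 and 70.9 CPM, for which the wild-type library had too few cells (21 and 20).

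Markers of other cell types and of sex also differed between the libraries over all epithelial cells. The summed level of 7 keratocyte or fibroblast markers in epithelial cells was 110 CPM in the wild-type and 553 CPM in the other library, with 1 and 5 of the 7 at 20 CPM and none at 0. By class it ran from 59.5 to 196 CPM in the wild type and from 122 to 1011 CPM, in the Krt14-low class, in the other. It was higher in the other library in the Gpha2-positive, Krt14-high and Krt14-low classes. In the Krt13-positive class it was lower there, at 147.7 CPM in the wild type and 121.8 CPM in the other. In cells without a UMI of any of the 7 (5400 and 744 cells), a selection chosen after seeing the data, the Ephb2 ratio was 15.5 and the Ephb4 ratio 2.42. Blood endothelial markers summed to 4.23 and 18.2 CPM. Within the library labelled heterozygous, Ephb2 stood at 72.3 CPM in Xist-positive cells without Y-linked UMIs and at 64.8 CPM in cells with Y-linked UMIs and no Xist, both above every wild-type class. Ephb4 stood at 23.5 and 27.5 CPM in the same cells.

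**Figure D2:**
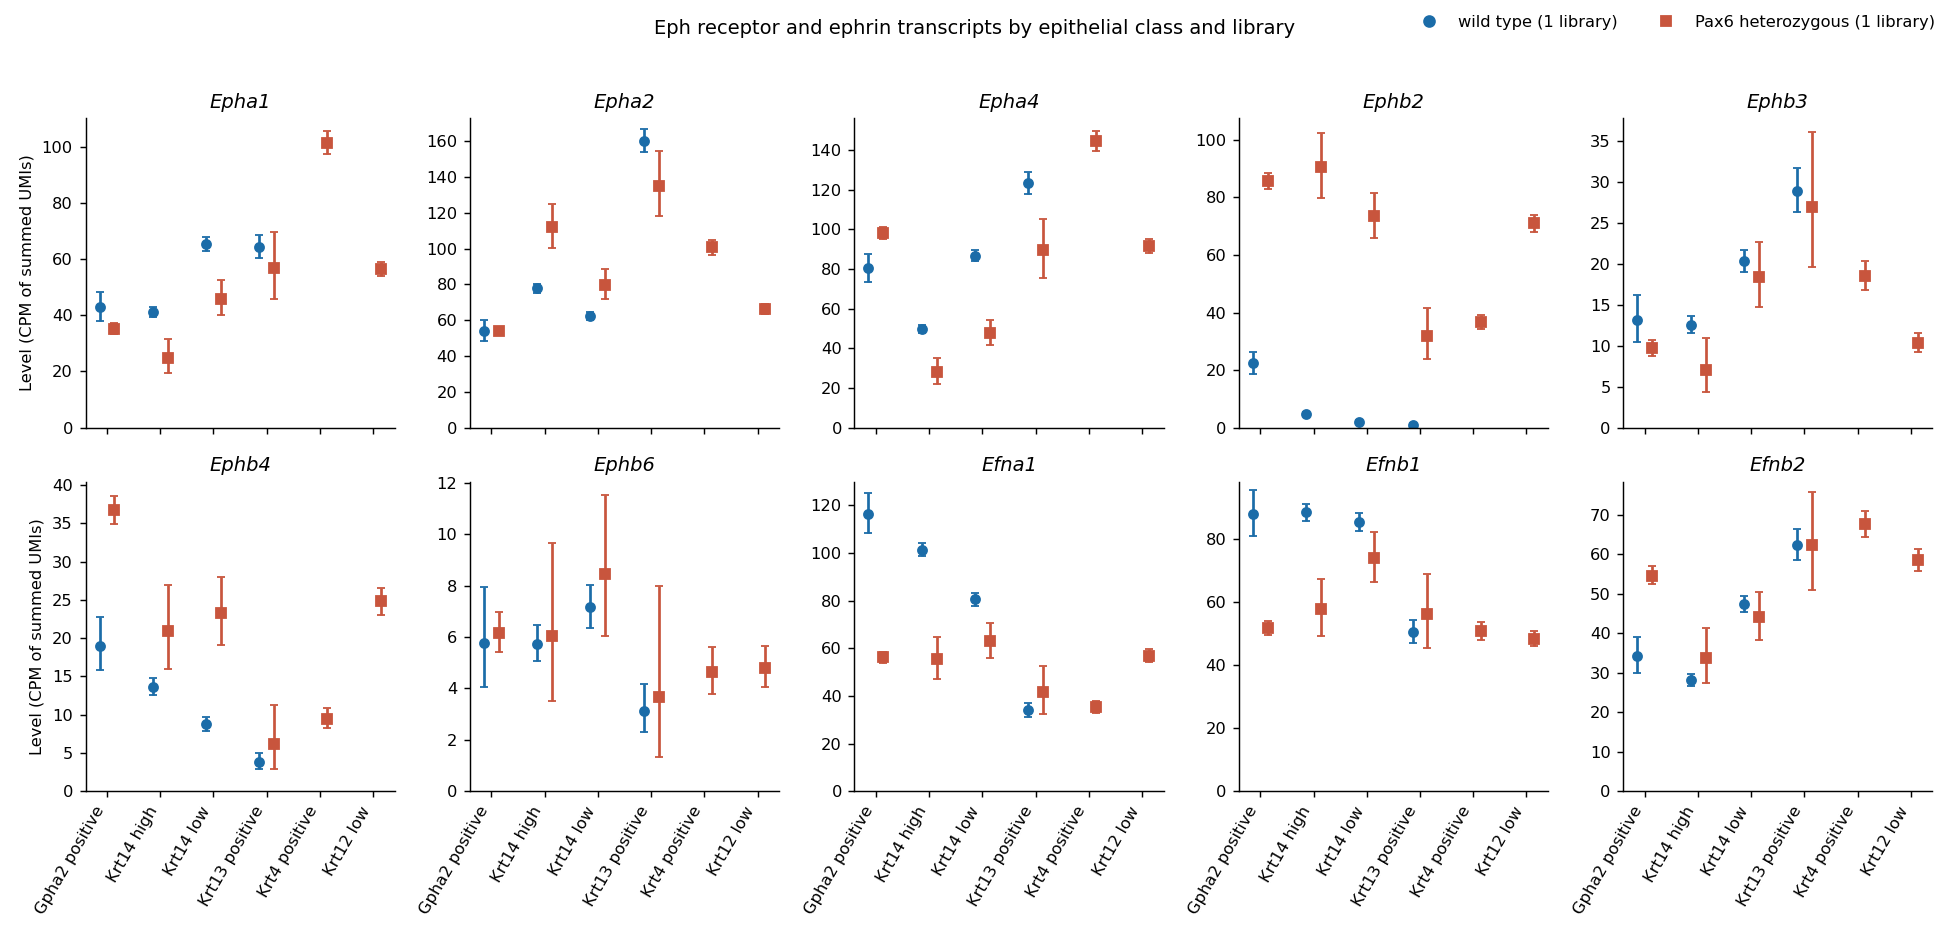
Level of each member (CPM of summed UMIs, linear axis from 0) in 6 exclusive epithelial classes of the wild-type library (circles) and the library labelled Pax6 heterozygous (squares), with exact Poisson 95% intervals as bars; classes under 50 cells are not drawn. Ephb2 lies at or under 22.3 CPM in all wild-type classes and at or above 31.8 CPM in all classes of the other library, and Efna1 descends from 116.5 to 33.9 CPM over the 4 wild-type classes.

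Ephb4 had the same order of classes as Ephb2 in the wild-type library. There it stood at 19.0, 13.6, 8.77 and 3.86 CPM in the Gpha2-positive, Krt14-high, Krt14-low and Krt13-positive classes. In the other library it stood at 36.7, 20.9, 23.3 and 6.12 CPM, and at 9.48 CPM in Krt4-positive cells. The 2 middle classes of that library had overlapping intervals. Ephb4 was thus lowest in Krt13-positive and Krt4-positive cells of either library that had them.

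Ephb3 (ENSMUSG00000005958; chromosome 16, 21204755 to 21223305, plus strand), another receptor of ephrin-B ligands, ran the other way. It stood at 17.8 CPM in wild-type and at 12.4 CPM in the other epithelial cells, under the 20 CPM needed for a call, with a ratio of 0.70 (0.652 to 0.751). Its wild-type levels were 13.1, 12.5, 20.3 and 28.9 CPM in the 4 classes in the order above. Those of the library labelled heterozygous were 9.68, 7.10, 18.4 and 26.9 CPM. In both libraries Ephb3 was highest in Krt13-positive cells, where Ephb2 and Ephb4 were lowest. Ephb6 (ENSMUSG00000029869; chromosome 6, 41605482 to 41620509, plus strand), a receptor whose kinase domain is inactive, was scarce at 5.90 and 5.48 CPM, with a ratio of 0.928 and an interval (0.828 to 1.04) that spans 1.

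The EphA receptors differed less between the libraries. Over 17 alternative settings of the processing, the epithelial ratio ran from 0.831 to 1.49 for Epha1 and from 0.689 to 1.22 for Epha2. The side of 1 on which these 2 ratios lay thus depended on the processing. Epha1 (ENSMUSG00000029859; chromosome 6, 42358487 to 42373268, minus strand), a receptor of ephrin-A ligands found mainly in epithelia, stood at 53.6 and 56.8 CPM. Its ratio of 1.06 (1.02 to 1.10) turned below 1 under DESeq2 factors, to 0.831, and under TMM. Epha1 overlaps Zyx and 2010310C07Rik on the opposite strand, so its reads may be mixed with theirs. Epha2 (ENSMUSG00000006445; chromosome 4, 141301240 to 141329384, plus strand), a receptor of Efna1 known from epithelial cell contacts and the lens, stood at 82.1 and 72.2 CPM, which gave a ratio of 0.879 (0.852 to 0.906). Epha4 (ENSMUSG00000026235; chromosome 1, 77367185 to 77515088, minus strand), which binds ephrins of both classes, stood at 76.2 and 102 CPM, which gave a ratio of 1.34 (1.30 to 1.38).

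For Epha4 the ratio over all epithelial cells did not describe each class. In the Gpha2-positive class Epha4 reached 80.3 CPM in the wild-type and 98.1 CPM in the other library, a ratio of 1.22 (1.11 to 1.34). In the Krt14-low class it stood at 86.7 and 47.6 CPM, which gave a ratio of 0.549 (0.478 to 0.628). The ratio was 0.566 in the Krt14-high class, at 49.6 and 28.0 CPM, and 0.725 in the Krt13-positive class, at 123 and 89.3 CPM. Epha4 was therefore lower in the library labelled heterozygous in the 3 classes set by the Krt12 limit and higher in the Gpha2-positive class. The latter class had no Krt12 limit and held far less Krt12 in that library. The part of Krt12 content in its Epha4 ratio was not tested. Its highest level in that library, 144 CPM, was in the Krt4-positive class, which held 16.7% of its epithelial cells and 0.246% of those of the wild type. Epha1 was also highest there, at 101 CPM, against 24.9 to 56.9 CPM in its other classes.

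Epha2 was highest in the Krt13-positive class of both libraries, at 160 CPM in the wild type and 135 CPM in the other. It was lowest in the Gpha2-positive class, at 54.0 and 54.1 CPM, a ratio of 1.00 (0.895 to 1.13). Between these it stood at 77.9 and 112 CPM in the Krt14-high class. It stood at 62.3 and 80.0 CPM in the Krt14-low class. The limbal class thus carried the least Epha2 in each library.

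Both Efna1 and Efnb1 were lower in the library labelled heterozygous, and Efnb2 was higher. Efna1 (ENSMUSG00000027954; chromosome 3, 89271733 to 89281142, minus strand), the lipid-anchored ligand of EphA receptors, stood at 84.9 and 51.9 CPM, which gave a ratio of 0.611 (0.591 to 0.632). Efnb1 (ENSMUSG00000031217; chromosome X, 99136130 to 99148991, plus strand), a membrane-spanning ligand of EphB receptors, stood at 81.9 and 51.8 CPM, which gave a ratio of 0.633 (0.612 to 0.655). Efnb2 (ENSMUSG00000001300; chromosome 8, 8617434 to 8661242, minus strand), the membrane-spanning ligand best known from arteries, stood at 40.8 and 57.7 CPM, which gave a ratio of 1.42 (1.36 to 1.47). None of the 3 ligands was 2-fold apart. Efnb2 overlaps E230020D15Rik and the gene models Gm45074 and Gm45073 on its own strand, which leaves its counts uncertain to that extent.

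By class, Efna1 and Efnb2 ran in opposite directions in the wild-type library. Efna1 stood at 116.5, 101, 80.6 and 33.9 CPM from the Gpha2-positive through the Krt14-high and Krt14-low to the Krt13-positive class. Efnb2 stood at 34.3, 28.2, 47.4 and 62.4 CPM in the same order. In the other library Efna1 was flat over the first 3 classes at 56.3, 55.4 and 63.0 CPM, with overlapping intervals, and stood at 41.6 CPM in the Krt13-positive and 35.4 CPM in the Krt4-positive class. The gap in Efna1 was widest in the limbal class, with a ratio of 0.483 (0.445 to 0.526), and in the Krt13-positive class the interval spanned 1, with a ratio of 1.23 (0.939 to 1.58). Efnb2 in the other library stood at 54.6, 33.7, 44.0 and 62.4 CPM, so it was lowest in the Krt14-high class of both. Efnb1 stood at 88.1, 88.6, 85.6 and 50.7 CPM in the wild type, level over 3 classes and lower in the fourth. Efnb1 in the other library lay between 48.4 and 74.0 CPM over all 6 classes. In the Krt13-positive class the ratios of Efna1, Efnb1 and Efnb2 turned from 1.00 or above to below 1 under TMM factors, which lowered the log2 ratios there by 0.46. Within the library labelled heterozygous Efna1 stood at 45.2 CPM in Xist-positive cells without Y-linked UMIs and at 59.97 CPM in cells with Y-linked UMIs and no Xist, both under the wild-type 84.9 CPM. The part of single mice in the Efna1 values was not tested.

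Within each library, members were compared between the sides of each of the 5 splits. Split by Gpha2, Ephb2 was 22.3 CPM in positive and 3.23 CPM in negative wild-type cells, a ratio of 6.90 (5.63 to 8.41), and was the only member at least 2-fold apart, 1 of 7 against 7.69% of all genes. In the other library Ephb2 was 85.7 and 58.6 CPM, a ratio of 1.46 (1.40 to 1.53). There the only such member was Epha1, at 35.2 and 70.6 CPM and a ratio of 0.499, 1 of 8 against 8.05%. Under TMM factors Ephb2 in positive wild-type cells was under 20 CPM, which ended the call at a ratio of 5.92. The Epha1 ratio passed 0.5 in 8 of 16 alternatives, with a range of 0.456 to 0.710. The median log2 ratio of the members was 0.08 in the wild type and -0.05 in the other library, beside 0.10 and 0.08 over all genes.

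Split by Krt12, Ephb2 stood at 3.92 CPM in the 8376 positive wild-type cells and at 27.0 CPM in the 176 negative ones, a ratio of 0.145 (0.109 to 0.197), 1 of 8 members against 13.2% of genes. In the other library, with 581 positive and 6215 negative cells, Ephb2 stood at 74.2 and 68.6 CPM, which gave a ratio of 1.08 (1.00 to 1.17). The member 2-fold apart there was Epha4, at 48.9 and 108 CPM and a ratio of 0.454 (0.414 to 0.497), 1 of 8 against 7.53%. Epha4 was also lower in Krt12-positive wild-type cells, at 75.1 and 137.5 CPM, a ratio of 0.546. Low Krt12 thus went with high Epha4 in both libraries, and with high Ephb2 in the wild type. The Epha4 call in the library labelled heterozygous ended at a ratio of 0.503 under DESeq2 factors. Members' median log2 ratios were -0.47 and -0.08 in the 2 libraries, beside -0.05 and -0.13 over all genes.

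Split by Krt13, Epha2 stood at 159 CPM in positive and 69.5 CPM in negative wild-type cells, a ratio of 2.29, and Efna1 at 33.7 and 93.4 CPM, a ratio of 0.361. These were 2 of 7 members, against 28.6% of all genes. In the library labelled heterozygous the members 2-fold apart were instead Ephb2, at 36.1 and 80.6 CPM and a ratio of 0.448, and Ephb4, at 9.14 and 31.2 CPM and a ratio of 0.292. These were 2 of 8, against 19.2%. TMM factors raised the wild-type log2 ratios of this split by 0.50 and those of the other library by 0.31, and the calls changed: in the wild type Epha2, Epha4, Ephb3 and Efnb2 were then higher, and Efna1 was no longer 2-fold lower. In the other library Epha1, Epha2 and Ephb3 were then higher and Ephb4 alone lower. Without scaling factors the members' medians were 0.78 and 0.12 on the log2 scale, beside -0.40 and -0.21 over all genes.

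Split by Krt4, which had only 55 positive cells in the wild type, Epha4 (167 and 75.1 CPM) and Efnb2 (85.0 and 40.2 CPM) were 2-fold higher in positive cells. Efna1 (30.1 and 85.6 CPM) and Efnb1 (24.8 and 82.6 CPM) were 2-fold lower. These were 4 of 6 members, against 27.9% of genes. In the 1267 positive cells of the other library Epha1 was 2-fold higher (95.8 and 43.1 CPM), and Ephb2 (37.4 and 80.3 CPM) and Ephb4 (10.1 and 31.0 CPM) were 2-fold lower, 3 of 8 members against 19.0%. Under TMM factors Epha2 joined the higher members of the wild type (3 higher, 2 lower). In the other library Ephb3 joined Epha1 as higher and Ephb2 was no longer called (2 higher, 1 lower). Members' medians were 0.60 and 0.14 on the log2 scale, beside -0.31 and -0.19 over all genes. Median depth differed on the 2 sides of the split, at 21949 and 11247 UMIs in the wild type and 17679 and 13726 UMIs in the other library.

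Split at the median of Krt14, no member at 20 CPM was 2-fold apart in the wild type (0 of 7, against 7.47%) or in the other library (0 of 8, against 5.51%), with member medians of -0.61 and -0.02 on the log2 scale beside 0.04 and 0.03 over all genes. Ranked by Krt14 in deciles of cells, however, several members differed between the ends of the wild-type library, some with small turns on the way. Efna1 stood at 64.7 CPM in the lowest and 115 CPM in the highest decile, and Ephb2 at 1.11 and 13.5 CPM. In the reverse direction Efnb2 stood at 57.8 and 19.2 CPM, Epha4 at 109 and 46.0 CPM, Epha1 at 71.5 and 30.9 CPM and Ephb3 at 25.03 and 8.43 CPM. Epha4 was lowest in decile 9, at 40.9 CPM. The first 3 deciles hold cells with 0 Krt14 UMIs only, so their order among themselves is arbitrary.

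**Figure D3:**
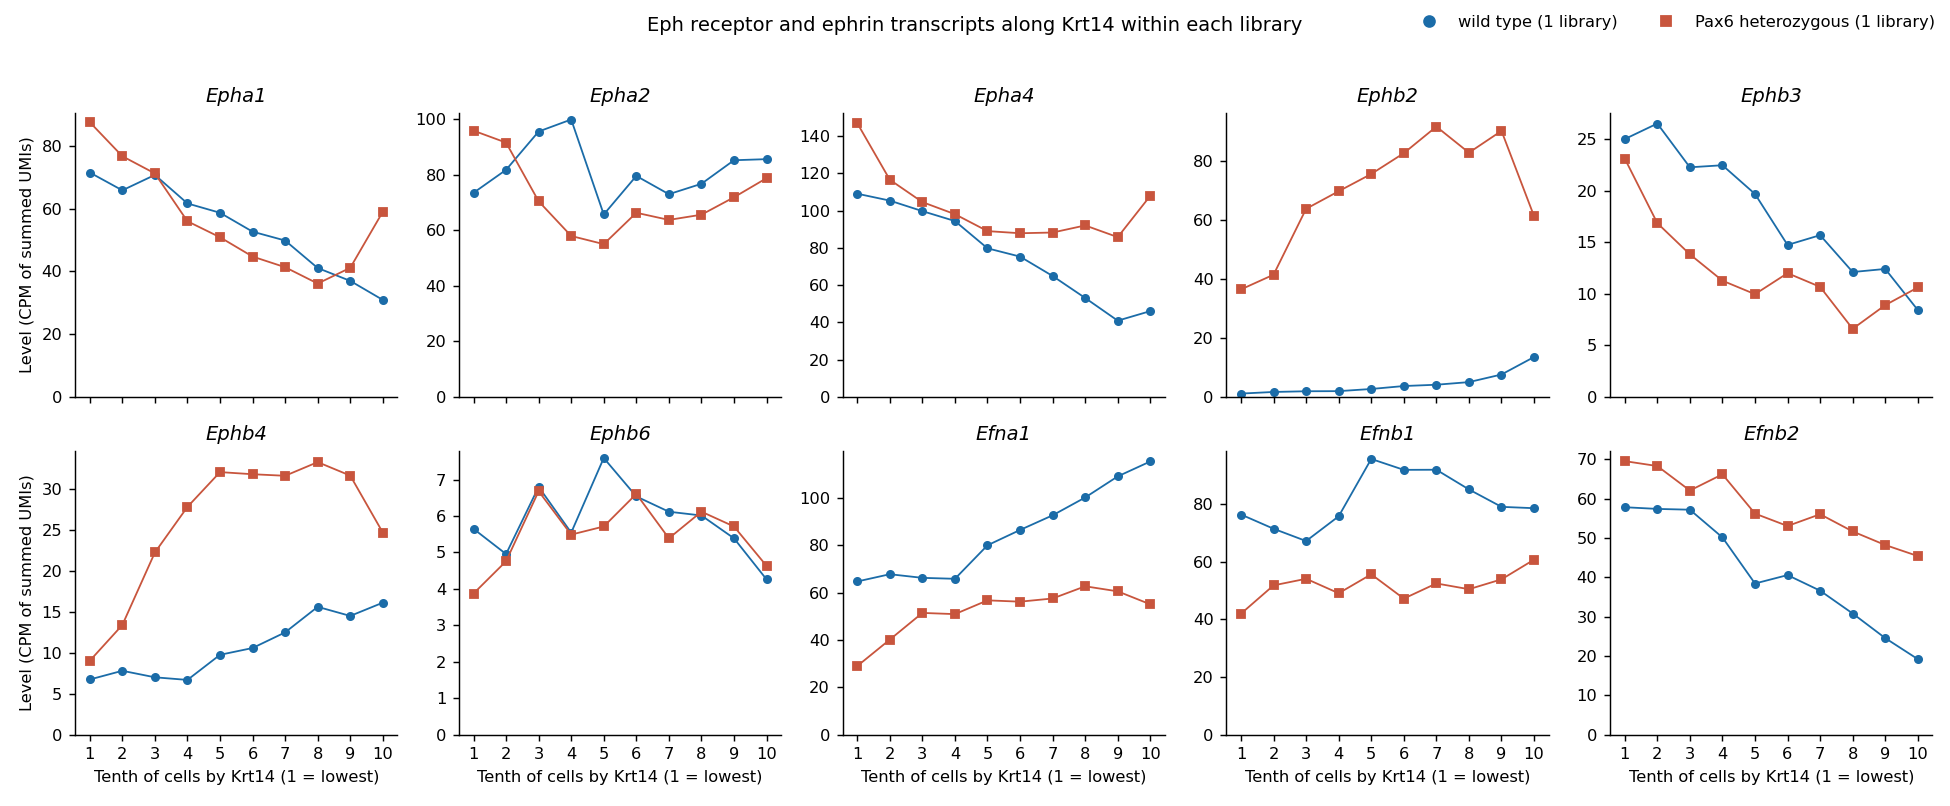
Level of each member (CPM of summed UMIs) in deciles of the epithelial cells ranked by Krt14 within the wild-type library (circles) and the library labelled Pax6 heterozygous (squares), where decile 1 has the least Krt14. In the wild type Efna1 climbs from 64.7 to 115 CPM and Efnb2 descends from 57.8 to 19.2 CPM; in the other library Ephb2 climbs from 36.5 to 91.7 CPM at decile 7 and lies at 61.3 CPM in the last.

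In the library labelled heterozygous the Krt14 ranking gave like directions at the low end and, for several members, a turn at the high end. Efnb2 had no such turn, at 69.5 CPM in the lowest and 45.4 CPM in the highest decile. Ephb2 stood at 36.5 CPM in the lowest decile, 91.7 CPM in decile 7 and 61.3 CPM in decile 10. Ephb4 stood at 9.04, 31.6 and 24.7 CPM in the same deciles, and Efna1 at 29.0, 57.5 and 55.0 CPM. Epha1 stood at 87.6 CPM in the lowest, 36.1 CPM in decile 8 and 59.0 CPM in decile 10. The cells with the most Krt14 in that library therefore did not carry the most Ephb2 or the least Epha1. The Krt14 scale itself differed, with medians of 2.40 and 44.7 UMIs per 10000, so deciles of the 2 libraries are not matched.

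Along Gpha2 content, a hormone subunit gene that marks limbal stem cells, Ephb2 was graded in the wild type. It stood at 3.14 CPM in 6486 cells with no Gpha2 UMI, 3.48 CPM above 0 to under 2 per 10000, 12.8 CPM at 2 to under 5, 30.1 CPM at 5 to under 10 and 36.8 CPM in 177 cells at 10 or more. Even the highest wild-type step lay below the 52.2 CPM of cells with no Gpha2 UMI in the other library. There Ephb2 stood at 66.2, 86.6, 91.4 and 75.8 CPM over the further steps. Keratocyte or fibroblast markers summed to 89.0, 151, 67.5, 850 and 75.8 CPM over the 5 wild-type steps, so the fourth step, of 97 cells, stood apart and the highest did not. Ephb4 stood at 10.1 to 24.0 CPM from the lowest to the highest wild-type step and at 16.2 to 42.3 CPM in the other library. Efna1 stood at 83.3 CPM in the lowest and 145 CPM in the highest wild-type step. Epha1 ran the other way in the library labelled heterozygous, at 80.0 CPM in the lowest and 33.4 CPM in the highest step.

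**Figure D4:**
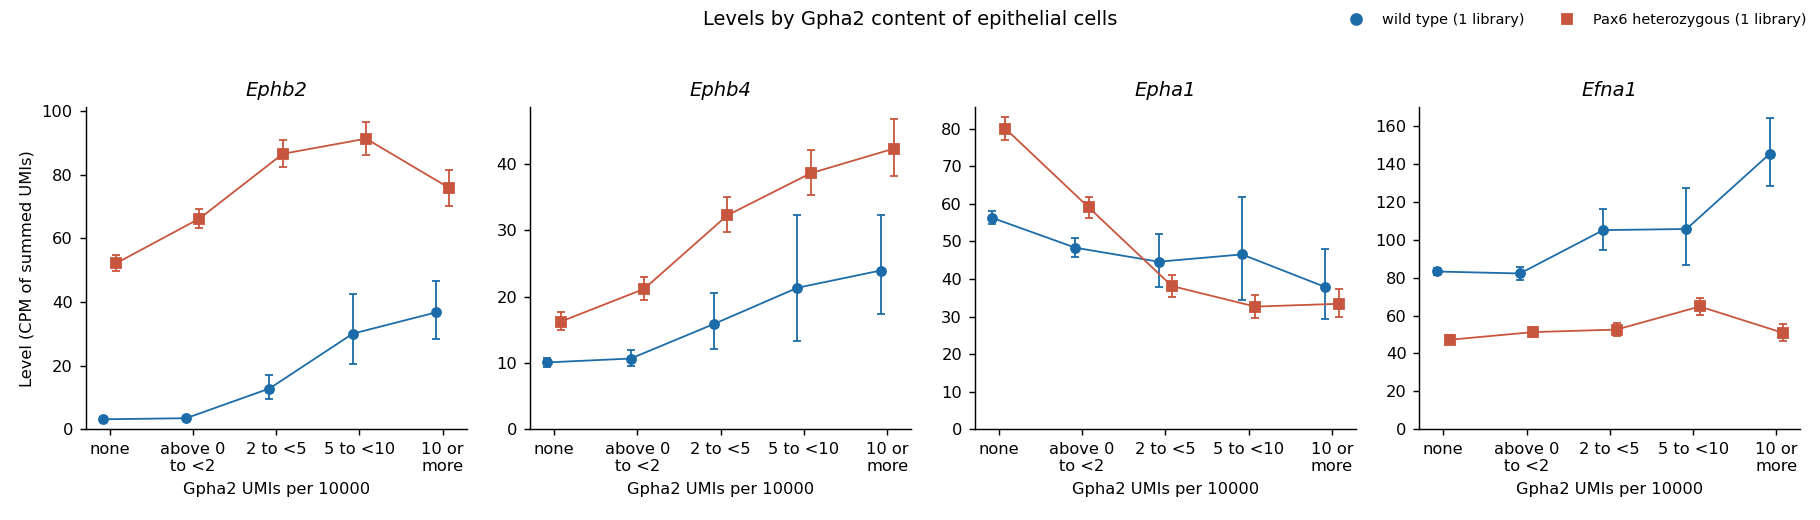
Level of Ephb2, Ephb4, Epha1 and Efna1 (CPM of summed UMIs) in epithelial cells grouped by Gpha2 UMIs per 10000, for the wild-type library (circles) and the library labelled Pax6 heterozygous (squares), with exact Poisson 95% intervals. Wild-type Ephb2 climbs from 3.14 to 36.8 CPM and stays under the 52.2 CPM of the lowest step in the other library.

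Outside the epithelium the members fell to different cell types, named in cells under the epithelial limit from UMIs of at least 3 markers of 1 type and fewer of any other, which left 699 and 488 cells unnamed. Ephb2 stood at 27.0 CPM in 671 wild-type keratocyte- or fibroblast-like cells and at 81.2 CPM in 1077 of the other library, a ratio of 3.01 (2.54 to 3.58). In Schwann-like cells it stood at 46.6 CPM on 10 UMIs and at 121 CPM on 121 UMIs, a ratio of 2.59 (1.36 to 5.54). Ephb2 was the only member 2-fold apart in either type, 1 of 6 against 14.5% and 1 of 5 against 26.1% of genes. So its higher level in the library labelled heterozygous was seen in 3 kinds of cell. It was not seen in vessel cells: 313 blood endothelial-like cells of that library gave 2 Ephb2 UMIs (0.762 CPM) and 482 mural-like cells gave 6 (1.83 CPM). The wild-type library gave 0 UMIs in 74 and 53 such cells, which allows up to 9.35 and 18.6 CPM. Vessel cells thus carried next to no Ephb2 UMIs in the library where epithelial cells stood at 69.2 CPM.

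Vessel cells instead carried Ephb4, Efnb2 and Efna1. In lymphatic endothelial-like cells of the library labelled heterozygous Ephb4 stood at 217 CPM, Efnb2 at 190 CPM and Efna1 at 190 CPM. In blood endothelial-like cells Efnb2 reached 172 CPM in the wild type and 157 CPM in the other library, and Ephb4 at 76.1 and 120 CPM. No member was 2-fold apart there (0 of 6, against 13.5% of all genes). In mural-like cells Epha2 was lower, at 75.5 CPM on 15 UMIs and 31.2 CPM, 1 of 4 members against 23.4%. Epha1 was the member most limited to epithelium, at 5.03 CPM or less in each other named type, and Ephb6 stood at 32.6 and 28.9 CPM in Schwann-like cells against 5.90 and 5.48 CPM in epithelial cells.

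**Figure D5:**
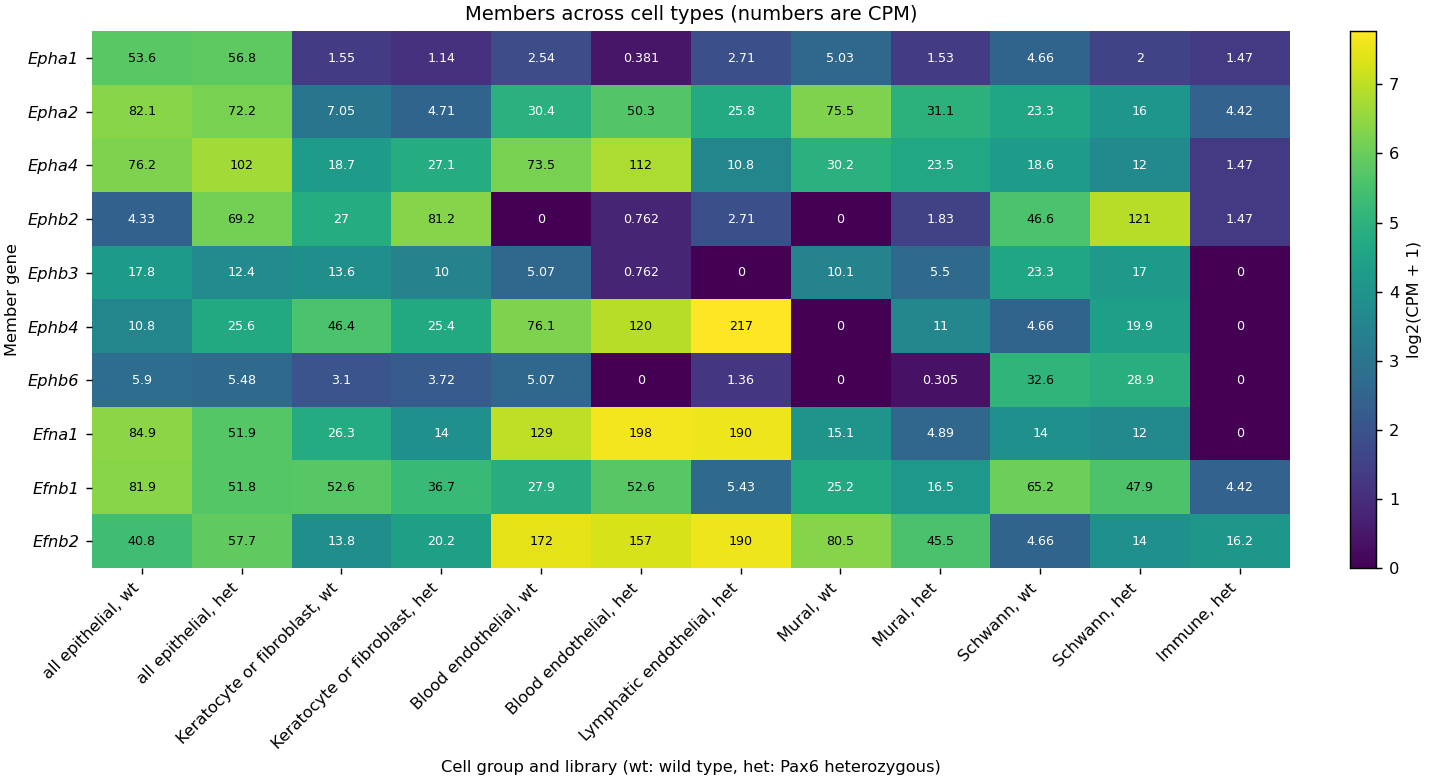
Level of each member (rows) in epithelial cells and in other cell types named from markers (columns, by library), with CPM printed in each cell and colour on a log2(CPM + 1) scale; rows are to be read along, since UMI levels of different genes are not set per length. Ephb2 reaches 81.2 CPM in keratocyte- or fibroblast-like and 121 CPM in Schwann-like cells of the library labelled heterozygous and stays at 2.71 CPM or less in its vessel and immune-like cells.

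Cell by cell, the receptor and ligand sides were compared after each cell was thinned to 5000 UMIs, which left out 1608 and 858 shallower epithelial cells. An Ephb2 UMI was found in 2.06% of wild-type cells (exact interval 1.74 to 2.42%) and 27.8% of the others (26.7 to 29.0%), and without thinning in 4.89% and 51.9%. Named cells of other types gave 9.41% and 16.3%, which include the keratocyte- and Schwann-like cells above, and their median depths of 8093 and 8299 UMIs lay below the epithelial ones. An Efna1 UMI was found in 34.4% and 21.8% of epithelial cells, and an Efnb1 UMI in 33.1% and 22.1%. Epha1 gave 21.7% and 22.5% in epithelial cells against 0.16% and 0.416% in other types. Ephb2 and Efnb2 were found together in 0.302% and 6.77% of cells, against 0.331% and 6.43% from the product of the single shares. For Epha4 and Efnb2 the joint share was 5.44% and 9.50%, against products of 4.25% and 8.03%. Both products lay under the intervals over all epithelial cells. Within Gpha2-positive cells they lay inside them, with joint shares of 5.42% (3.63 to 7.73%) and 8.22% (7.19 to 9.35%) and products of 4.11% and 7.34%. The product lay under the interval, however, in wild-type Krt14-high cells, at a joint share of 2.689% (2.145 to 3.327%) and a product of 2.103%. The same held in wild-type Krt14-low cells, at 6.671% (5.773 to 7.662%) and 5.768%. In the other library it held in Krt4-positive cells, at 16.58% (14.32 to 19.04%) and 14.29%, and Krt12-low cells, at 8.98% (7.726 to 10.36%) and 7.619%. In the remaining classes the product lay inside the interval. At 2000 UMIs the product over all epithelial cells of the library labelled heterozygous, 2.05%, was inside the interval (1.91 to 2.65%). The wild-type product at 2000 UMIs, 0.906%, lay under its interval (0.984 to 1.48%). Ephb3 and Efnb2 lay above their product over all wild-type epithelial cells at 5000 UMIs, at 1.815% (1.514 to 2.157%) against 1.291%. In the other library their product of 1.258% lay inside the interval (1.01 to 1.599%). Among wild-type classes the excess of Ephb3 and Efnb2 held only in Krt13-positive cells, at 6.104% (4.264 to 8.426%) against 3.868%. Other pairs lay below their product over all wild-type epithelial cells: Ephb4 and Efnb2 at 0.662% (0.485 to 0.883%) against 0.940%, and Epha4 and Efna1 at 8.12% (7.49 to 8.79%) against 9.10%.

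The other 12 genes of the family were mostly scarce. Only Efna5 reached 20 CPM, at 373 and 455.5 CPM with a ratio of 1.22 (1.21 to 1.24), so 0 of 1 was called. Below that level Epha7 stood at 0.297 and 7.41 CPM, Ephb1 at 0.189 and 2.53 CPM and Efna3 at 14.3 and 5.37 CPM. Ephb2 was thus the only family member with both a level over 20 CPM and a ratio over 3. Efna5 was named as the gene of this list nearest to a ratio of 1 at 20 CPM, and the 3 scarce genes were chosen after their values were seen. Within the libraries Efna5 was at least 2-fold lower in Krt4-positive cells, at log2 ratios of -1.51 (wild type) and -1.42 (other library). The same held in Krt13-positive cells of the library labelled heterozygous, at -1.37. Among all genes 27.9%, 19.0% and 19.2% were at least 2-fold apart in these splits. Efna5 was not called in the other splits.

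Of 32 genes that act with Eph receptors and ephrins, 28 reached 20 CPM, 4 were at least 2-fold higher and 1 lower in the library labelled heterozygous. This share is close to the 19.7% of all genes. Under TMM or DESeq2 factors the balance turned to 1 higher, Vav3, and 3 lower, Ngef, Rock2 and Acp1, and Vav2, Grip1 and Ptk2 were no longer called. Without such factors the 4 higher genes were Vav3 (34.7 and 107 CPM, a ratio of 3.08) and Vav2 (8.84 and 24.0 CPM, 2.71), both exchange factors that act downstream of Eph receptors, Grip1 (28.6 and 64.1 CPM, 2.24), a scaffold that binds the ephrin-B tail, and Ptk2 (41.1 and 84.3 CPM, 2.05), the focal adhesion kinase. The lower gene was Ngef, an exchange factor that binds Epha4, at 27.2 and 5.55 CPM with a ratio of 0.204. Nearest to 1 was the adaptor Nck1, at 52.6 and 52.5 CPM with a ratio of 0.997. Split by Gpha2 in the wild type, 1 of 27 partner genes was at least 2-fold apart, against 7.69% of all genes. It was Vav3, at 78.7 CPM in positive and 32.0 CPM in negative cells. In the other library 0 of 28 were, against 8.05%.

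Likeness was described by Pearson's r of log2(CPM + 1) over the 10 class profiles of both libraries, among 7954 genes. The profiles share libraries and depth, so no p is given. The genes most like Ephb2 were Glis3 (r = 0.995), Rnf128 (0.991) and Ifitm3 (0.990), of which Ifitm3 is on the limbal marker list. Ifitm3 stood at 69.15 CPM in wild-type and 1185 CPM in the other epithelial cells. Its r with Ephb2 therefore takes in the gap between the libraries as well as differences among classes. Those most like Ephb4 were Polr2m, Mat2a and Ptpn12 (0.987 to 0.991). Closest to Efna1 were Lnpep, 1190007I07Rik and Maoa (0.974 to 0.977), and to Efnb2 Kalrn, Tlr4 and Epb41 (0.958 to 0.983). Closest to Efnb1 were Oxr1, Etnk1 and Cntf (0.955 to 0.969), and to Ephb3 Prrc1, AI413582 and Bag2 (0.960 to 0.971). For Epha1 these were 2610001J05Rik, Cr1l and Mindy1 (0.960 to 0.983), for Epha2 Trim16, Actg1 and Capns1 (0.938 to 0.954), and for Epha4 Cd2ap, Rnf44 and Mospd2 (0.954 to 0.970). Among members, Efna1 was most like Efnb1 (r = 0.864) and opposite to Efnb2 (-0.815), Epha1 was like Epha4 (0.803), and Ephb2 was like Ephb4 (0.737), which was opposite to Ephb3 (-0.834).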

How the data were processed

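Single-cell libraries of 1 wild-type and 1 Pax6 heterozygous sample were used as deposited. The authors' matrices hold raw, unscaled UMI counts for each gene and barcode; the files were made with Cell Ranger 8.0.0, per the file headers, and per the submitters' processing notes the build is GRCm38. Whether intronic reads were counted is not given in the sources used here. A barcode was kept from 500 detected genes and 1000 UMIs upwards if mitochondrial genes made up no more than 20% of its UMIs. No doublet caller was run; cells with other types' markers or the most UMIs were left out as alternatives. UMIs were summed per group and scaled to CPM without mitochondrial genes. Groups under 50 cells gave no level. A gene was called by size at 2-fold or more if at 20 CPM on either side, with 0 UMIs set to a floor of 3. Intervals (95%) hold counting error alone: shares were given the Clopper-Pearson, levels the exact Poisson and ratios the exact conditional binomial interval. Split limits per 10000 UMIs were 20 (Krt12), 10 (Krt13, Krt4), 2 (Gpha2) and the library median (Krt14). All members are named, and of the other lists each called gene and the 2 nearest to a ratio of 1, of which 1 partner gene is not reported here. Members, lists and limits were chosen with earlier results of these data known. The ratio code was tested on simulated data. Python 3.11.15, SciPy 1.17.1, edgeR 4.0.16 (TMM factors) and DESeq2 1.42.0 (size factors) were used. Positions are from GENCODE and promoters from RefSeq (GRCm38.p6), with 10 of 10 members matched in each.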

Additional observations from a re-analysis of the deposited data

Results flagged for a closer look

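For 4 members, ratios lay on opposite sides of 1 in 2 classes or 2 libraries, with intervals for counting error that exclude 1; the differences were not tested. For Epha4 the ratio of the library labelled heterozygous over the wild type was 1.22 (1.11 to 1.34) in Gpha2-positive and 0.549 (0.478 to 0.628) in Krt14-low cells. For Epha2 it was 1.44 (1.28 to 1.62) in Krt14-high and 0.844 (0.732 to 0.968) in Krt13-positive cells. Split by Krt12, positive over negative, Ephb2 had a ratio of 0.145 (0.109 to 0.197) in the wild type and 1.08 (1.00 to 1.17) in the other library. Efna1 had 0.810 (0.706 to 0.935) and 1.16 (1.07 to 1.27). Under TMM factors the wild-type Efna1 ratio was 0.921 with an interval of 0.802 to 1.06, and under DESeq2 factors 0.908 (0.790 to 1.05), so both then spanned 1. The other intervals above excluded 1 under both factors.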

How the results depend on the processing

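Of 207 alternative counts and shares, 165 kept their value within 1.5 times or the interval and 42 moved. Totals were compared here, not genes or directions: of 163 kept counts of called genes, 26 held other genes and 24 another split of higher and lower, among them the epithelial members and the partner genes under TMM and DESeq2 factors. Of 387 alternative member ratios 276 stayed within their interval, 111 moved and 0 reversed a call. Members without a call were not read for reversal, and the epithelial ratios of Epha1, Epha2 and Ephb6 lay on both sides of 1. The Ephb2 ratio over epithelial cells ranged from 12.5 to 16.7, at least 2-fold in 17 of 17 alternatives, and that of Ephb4 from 1.87 to 3.03, 2-fold in 15 of 17. Counts of members 2-fold apart moved as follows. Between the libraries the count was 4 (with Epha4 at 2.26 and Efnb2 at 2.50) without cells holding any keratocyte, fibroblast or Schwann marker, an alternative added after seeing the data. Among the other family genes it was 9 with no minimum and 2 at 5 CPM. In the wild type, the Krt12 count was 2 at epithelial limits of 15 and 60, at a Krt12 limit of 10 and without cells with other types' markers. The Krt14 count was 1 with no minimum or 5 CPM and 3 between the outer quartiles. The Krt13 count was 4 with TMM or DESeq2 factors, at 5 CPM or without the 5% deepest cells, and 5 with no minimum or thinned cells. The Gpha2 count was 0 with TMM or DESeq2 factors, thinned cells, a Gpha2 limit of 1 or without stromal and Schwann marker cells, and 2 at an epithelial limit of 15, a Gpha2 limit of 5 or without cells with other types' markers. In the library labelled heterozygous, the Krt12 count was 0 with DESeq2 factors or without cells with other types' markers. The Krt14 count was 1 between the outer quartiles and 2 without stromal and Schwann marker cells. The Krt13 count was 4 with TMM or DESeq2 factors, thinned cells, or without the deepest cells or those with other types' markers. The Gpha2 count was 0 at 10% mitochondrial UMIs, an epithelial limit of 15, a Gpha2 limit of 5, thinned cells or without cells with other types' markers, and 2 at an epithelial limit of 60. The Krt4 count was 5 at a limit of 20. Joint detection of Ephb2 and Efnb2 there was 26.9% unthinned and 1.40% at 2000 UMIs. The causes were not tested, except that the wild-type Gpha2 count of 0 arose with Ephb2 under 20 CPM. For 10 alternatives 1 side had under 50 cells and no value. With 1 library per genotype, mouse, genotype and preparation cannot be told apart, and no replicate could be left out. No paired analysis was possible because each genotype has 1 library.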
